A study of Drosophila melanogaster with 3 samples.

Results

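Elba2 occupancy was described at 9 genes of the maternal Toll to Dorsal pathway, out of 13968 protein-coding genes in the annotation used. They are ndl, snk, ea, spz, Tl, tub, pll, cact and dl. Other genes written for the pathway, gd, pip, wbl and Myd88 among them, were counted in a separate list. The genes were taken by name from the textbook pathway, with earlier results of these data known, and all 9 matched a gene on build dm6. The 3 samples are biological replicates of 1 group: whole embryos of pooled sexes, aged 0 to 4 h, of a transgenic Drosophila melanogaster line (CG9883-GFP) that stably expresses Elba2 with green fluorescent protein at its C-terminus. Chromatin was sonicated to 200 to 800 bp and pulled down through the tag. No wild-type, untagged or input sample was analysed here, and whole embryos do not separate the cell types in which a region is occupied. Elba2 is a BEN-domain DNA-binding subunit of ELBA, an insulator-binding complex of the early embryo.

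The Toll pathway sets the back-to-belly axis of the fly embryo. A chain of serine proteases in the fluid around the egg, made by the mother, activates the ligand Spätzle on the ventral side. Spätzle binds the receptor Toll, the adaptor Tube and the kinase Pelle relay the signal, the inhibitor Cactus is destroyed, and the transcription factor Dorsal enters ventral nuclei. The mRNAs of most of these components are loaded into the egg, while the chromatin measured here is that of embryonic nuclei.

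The authors gave 5 lists on dm6 that were used here: 29295, 30000 and 30000 regions from replicates 1, 2 and 3, 28496 regions from the pooled replicates, and 3276 optimal peaks chosen by irreproducible discovery rate (IDR). All 3276 optimal peaks were the 3276 strongest regions of the pooled list, so a pooled rank up to 3276 is an optimal peak. Each region carries the authors' signal value, whose scale is not stated, and it was read only as a rank within its own list. Ranks are also given as the top percent of a list, where a low value is a strong region. Read numbers were not used, so the depth is unknown. A replicate region was taken as the same site when its summit lay within 200 bp of the pooled summit, and a transcription start site (TSS) as occupied when a summit lay within 500 bp of it.

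Optimal Elba2 peaks lay at or near 5 of the 9 genes, and at the TSS of 2 of them. The inhibitor gene cact had 4 optimal peaks in its body or within 5 kb, ea had 2, and Tl, spz and pll had 1 each. The NF-kappaB factor gene dl, the adaptor gene tub and the protease genes snk and ndl had none. Among all protein-coding genes 43.8% had an optimal summit in the body or within 5 kb, against 5 of 9 here. An optimal summit within 500 bp of a TSS was present at cact and pll, 2 of 9 genes, and at 17.9% of all protein-coding genes. Within gene bodies, 3 of 9 members (cact, spz and ea) and 11.3% of all genes had one. With peaks from only 2 replicates, the body count was 1 (cact) whichever replicate was left out, against 8.10% to 8.27% of all genes. The count with flanks was 4, 3 and 3 without replicates 1, 2 and 3, against 32.8%, 33.1% and 36.2% of all genes. A pooled region of any strength lay at the TSS of 5 members (Tl, cact, pll, tub and ea) and of 53.2% of all genes. With 9 genes these counts carry a wide error, and they were not tested against the shares of all genes. The median member was 5081 bp long and the median coding gene 2164.5 bp, and the part of gene length in the counts was not tested.

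The optimal peaks near the pathway genes were then placed relative to their neighbours. In 7 of the 9 optimal peaks the nearest coding TSS belonged to another gene. In 5 of the 9 (55.6%) that TSS lay within 100 bp of the summit. Of 10009 pairs of a coding gene and an optimal peak in its body or flanks, 33.0% were of this kind. The peaks nearest to their own gene's TSS were the Tl peak and the cact intron peak. Thus 2 of 9 members had an optimal peak nearest to their own TSS, against 18.3% of all coding genes. Of the 9 pairs here 2 (22.2%) had the gene's own TSS as the nearest, against 3180 of the 10009 (31.8%), and neither difference was tested. By annotation 5 summits were intergenic, 3 intronic and 1 in a 3' UTR.

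**Figure D1:**
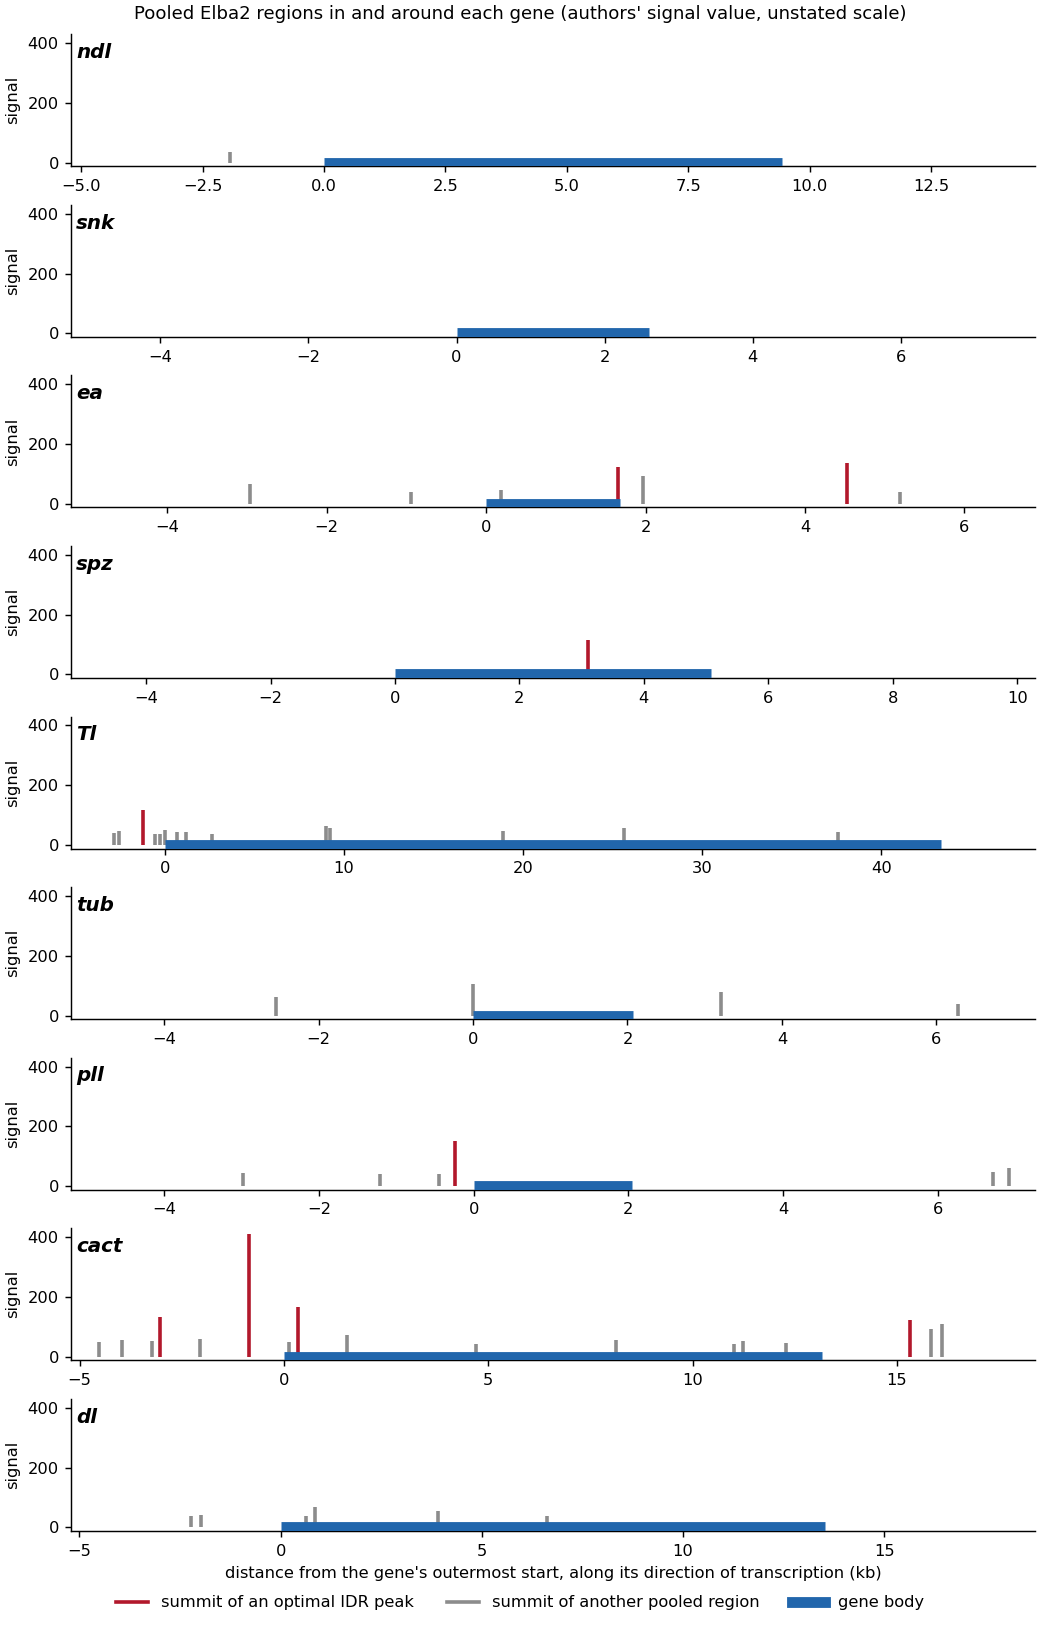
Summits of the pooled regions (bars, height the authors' signal on an unstated scale) from 5 kb before to 5 kb after each gene, along the direction of transcription in kb from its outermost TSS. The tallest bar, signal 409, stands before cact; snk has no bar and ndl 1 weak bar.

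The proteases at the top of the chain were examined first. The gene ndl (nudel, FBgn0002926, chr3L:6593938-6603366, minus strand) encodes the large protease of the egg covering that starts the cascade. Its only pooled region, at rank 26009 with signal 37.6, lay 1941 bp upstream in zpg, a germline gap-junction gene. At the ndl TSS replicate 1 had a region at rank 29011 (signal 15.5) and replicate 3 a region at rank 11025 (signal 17.3), while replicate 2 had none. Both summits were nearer to the TSS of Rexo5, at 23 and 173 bp. The gene snk (snake, FBgn0003450, chr3R:13040165-13042770, minus strand), a protease that cleaves Easter, had 0 pooled regions in its body and both flanks. In the replicate lists its locus held 1, 1 and 2 regions, none of them at the TSS or in the gene, at ranks of 14048 or weaker.

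The gene ea (easter, FBgn0000533, chr3R:15328729-15330408, plus strand) encodes the protease that cleaves Spätzle. It had a region 192 bp downstream of its TSS, in the 5' UTR, at pooled rank 15531 (signal 47.8). That region ranked 23166 in replicate 1 and 11399 in replicate 2 and was missing from replicate 3. Both optimal peaks of the locus lay at the other end of the gene. The first, chr3R:15330177-15330600 with the summit in the 3' UTR of ea, had signal 123 and pooled rank 2675. It lay 349 bp upstream of mRpL9, a mitochondrial ribosomal protein gene. Replicates 1, 2 and 3 had it at ranks 1980, 6218 and 4498 (14.2% ± 7.02 of the list, SD, n = 3). A separate pooled region 47 bp upstream of mRpL9 had rank 4369, and of these neighbouring regions the one beside mRpL9 was the stronger in replicate 2 (rank 3505) and the weaker in replicates 1 and 3 (3717 and 7298). The other peak, chr3R:15333047-15333470, lay 2851 bp past the end of ea and 7 bp upstream of the TSS of Cyfip, a gene of actin regulation, with the TSS of the immunophilin gene Fkbp39 also within 500 bp. Its signal was 137, its pooled rank 2170, and its ranks in replicates 1, 2 and 3 were 2080, 2571 and 2972 (8.53% ± 1.40), inside the top 3276 of each.

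The ligand gene spz (spätzle, FBgn0003495, chr3R:27064990-27070070, minus strand) had 1 pooled region in its whole locus, and it was an optimal peak. It lay inside the gene, chr3R:27066750-27067173, with the summit in an intron 3108 bp from the TSS. The nearest coding TSS was that of CG43935, 1526 bp from the summit. The signal was 114 and the pooled rank 3000, so this peak was among the weakest of the optimal set. Replicates 1, 2 and 3 held it at ranks 3507, 3323 and 3990, with signals of 48.1, 37.0 and 27.2. Each replicate placed it at nearly the same height in its list (12.1% ± 1.12), and each placed it outside its own top 3276. Of all 3276 optimal peaks, 20 (0.611%) were in the top 3276 of none of the replicates. The replicate summits lay within 49 bp of each other. No region was found within 500 bp of the spz TSS in any list.

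The spz peak was the one with the known ELBA words closest to its summit. The words searched, on both strands and within 100 bp of each summit, were CCAATAAG (the asymmetric ELBA site), CCAATTGG (the palindrome of the BEN-domain protein Insensitive), CCAATAGG, GGTCACAC (M1BP), TATCGATA (DRE), GAGAGAGA and the Zelda word CAGGTAG. A copy of CCAATAAG was centred 2 bp from the spz summit and a copy of CCAATTGG 38 bp away. Both words together were present at 20 of the 3276 optimal peaks (0.611%) and at 27 of the 28496 pooled regions (0.0948%). In the 201 bases around the summit, chr3R:27066862-27067062 on the minus strand, capitals mark both words, the ELBA site being read here as its reverse complement.
spz intron peak: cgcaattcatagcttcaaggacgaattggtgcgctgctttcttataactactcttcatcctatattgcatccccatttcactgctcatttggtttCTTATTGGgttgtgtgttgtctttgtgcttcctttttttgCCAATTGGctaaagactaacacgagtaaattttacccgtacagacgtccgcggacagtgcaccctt

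The receptor gene Tl (Toll, FBgn0262473, chr3R:26799041-26842403, plus strand) is the longest of the 9 genes. Its optimal peak, chr3R:26797603-26798026, was intergenic and lay 1226 bp upstream of its only annotated TSS, with no coding TSS nearer than that of Tl. The signal was 118 and the pooled rank 2850. In replicates 1, 2 and 3 the region had signals of 48.3, 39.3 and 30.6 and ranks of 3483, 2940 and 3141 (10.7% ± 1.07). It was in the top 3276 of replicates 2 and 3 and fell outside that of replicate 1. At the TSS itself there was a region 4 bp from the start, in the 5' UTR, at pooled rank 13816 (signal 50.5), and one 241 bp upstream at rank 27974. Replicate 1 had the first at rank 9619, replicate 2 had the second at rank 28488, and replicate 3 had neither. Inside the gene the other 8 pooled regions were intronic, the strongest at rank 8936, and upstream 3 more were intergenic, the strongest at rank 15959. With 14 pooled regions over the gene and its flanks, Tl had 0.262 per kb, against a median of 0.299 per kb over all coding genes. None of the words lay within 100 bp of the upstream summit, whose surroundings, chr3R:26797715-26797915 on the plus strand, are shown, without capitals, because this was the only intergenic optimal peak of the 9 loci with a pathway gene's TSS as the nearest.
Tl upstream peak: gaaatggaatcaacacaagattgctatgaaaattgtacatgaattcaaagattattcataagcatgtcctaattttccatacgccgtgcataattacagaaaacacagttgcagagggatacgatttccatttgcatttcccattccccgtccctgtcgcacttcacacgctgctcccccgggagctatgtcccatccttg

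The adaptor gene tub (tube, FBgn0003882, chr3R:4387742-4389813, plus strand) had the strongest pooled region at a member TSS that was not an optimal peak. The region chr3R:4387525-4387948 had its summit 5 bp upstream of the TSS, with signal 107 at pooled rank 3382, which is 106 ranks past the last optimal peak, whose signal was 109. The replicates disagreed on its strength. It ranked 7191 in replicate 1 (signal 31.8) and 6528 in replicate 2 (27.1) but 1821 in replicate 3 (40.1; mean 17.5% ± 9.96), and only in replicate 3 was it in the top 3276. Replicate 2 had a stronger region 315 bp upstream of the TSS at rank 4162. The M1BP word GGTCACAC, bound by the promoter factor M1BP, was centred on the summit, and GAGAGAGA lay 58 bp from it. These words were present at 6.72% and 2.93% of all optimal peaks and at 2.28% and 1.98% of all pooled regions. Both are in capitals in chr3R:4387637-4387837, plus strand.
tub start region: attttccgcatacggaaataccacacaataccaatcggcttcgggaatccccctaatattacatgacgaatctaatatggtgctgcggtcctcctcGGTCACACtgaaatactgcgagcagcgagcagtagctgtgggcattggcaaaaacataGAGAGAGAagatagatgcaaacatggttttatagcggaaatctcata

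The kinase gene pll (pelle, FBgn0010441, chr3R:27251131-27253182, minus strand) had an optimal peak at its start. The peak chr3R:27253214-27253637 had its summit 244 bp upstream of the pll TSS, with signal 150.0 and pooled rank 1827. The 3 replicates placed it at ranks 1767, 1700 and 2234 with signals of 69.5, 51.8 and 36.3 (6.38% ± 0.940), inside the top 3276 of each. The summit was, however, 4 bp from a TSS of TfIIA-L, a subunit of the general transcription factor TFIIA. TfIIA-L runs on the opposite strand to pll, and the summit falls in an intron of its longer form. When a peak was credited only to its nearest coding TSS, the pll call went to TfIIA-L and the count of members with an occupied TSS was 1 instead of 2. The genes with the most similar ranks over the 3 replicates, apart from TfIIA-L, which shares the peak, were Pfrx (ranks 1714, 1840 and 2067), CG4853 and HnRNP-K, at distances of 0.0499, 0.0617 and 0.0639 in log10 rank among 2413 genes. None of the words was found within 100 bp of the pll summit, in chr3R:27253326-27253526, minus strand, shown for the start shared by pll and TfIIA-L.
pll start peak: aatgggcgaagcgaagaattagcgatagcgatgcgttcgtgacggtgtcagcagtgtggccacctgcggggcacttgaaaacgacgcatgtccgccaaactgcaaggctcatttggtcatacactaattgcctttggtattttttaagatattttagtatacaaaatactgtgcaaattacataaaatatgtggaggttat

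The inhibitor gene cact (cactus, FBgn0000250, chr2L:16313036-16326207, minus strand), the IkappaB of this pathway, had the most pooled regions of the 9 genes. Its locus held 17, or 0.734 per kb, against 0.599 per kb at ea, and 4 of them were optimal. In replicate 2 alone ea was the denser, with 0.771 regions per kb against 0.690 at cact. One optimal peak belonged to cact by position, chr2L:16325658-16326081, with the summit in an intron 231 bp downstream of one of its 4 TSSs. Its signal was 167 and its pooled rank 1508. Replicates 1, 2 and 3 gave it signals of 92.2, 56.0 and 31.0 and ranks of 990, 1441 and 3047 (6.11% ± 3.57), inside the top 3276 of each but lowest in replicate 3. A weaker region 12 bp downstream of the same TSS, in the 5' UTR, had pooled rank 14360. In rank over the replicates the peak was most like the one shared by CG12016, Dpm2 and PIG-C (1002, 1568 and 3019, a distance of 0.0373).

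The strongest peak near any of the 9 genes, chr2L:16326950-16327139, lay 860 bp upstream of cact. Its signal was 409 and its pooled rank 163. Replicates 1, 2 and 3 gave it signals of 195, 101 and 114 and ranks of 126, 349 and 152 (0.700% ± 0.403 of the list). All 3 replicates thus placed it above every other optimal peak of the 9 loci. The summit was 2 bp from the TSS of CG4278, which is transcribed away from cact, and it was outside the 500 bp window of cact. The ELBA site was centred 28 bp from the summit. The ELBA site occurred within 100 bp at 6.90% of optimal peaks and 2.48% of pooled regions. It is capitalised, as its reverse complement, in chr2L:16326967-16327167 on the minus strand, above the cact intron peak at chr2L:16325770-16325970, in which none of the words was found.
CG4278 start peak: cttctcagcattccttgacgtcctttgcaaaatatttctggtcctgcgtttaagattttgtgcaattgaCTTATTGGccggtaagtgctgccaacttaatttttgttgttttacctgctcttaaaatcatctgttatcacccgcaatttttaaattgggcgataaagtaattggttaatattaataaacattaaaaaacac
cact intron peak: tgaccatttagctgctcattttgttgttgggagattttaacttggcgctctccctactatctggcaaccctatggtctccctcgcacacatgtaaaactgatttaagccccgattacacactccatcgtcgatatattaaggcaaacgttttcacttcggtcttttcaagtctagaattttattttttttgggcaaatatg

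Further peaks framed cact on both sides. The peak chr2L:16329020-16329443, 3025 bp upstream of cact, lay 100 bp upstream of mRpL4, a mitochondrial ribosomal protein gene. Its signal was 134 and its pooled rank 2252, and its replicate ranks of 1905, 2651 and 7666 (13.6% ± 10.4) spread most of the 9. Past the 3' end of cact, the peak chr2L:16310685-16311108 lay 2139 bp beyond the gene and 59 bp upstream of fzy, the mitotic activator of the anaphase-promoting complex, with cni also within 500 bp. The signal was 122, the pooled rank 2711, and the replicate ranks 1853, 4373 and 3730 (11.1% ± 4.28). It had the M1BP word 55 bp from its summit. In the coding exon of cni, a pooled region at rank 3294 (signal 108) was the member-locus region closest to the optimal set from outside, and it was found in replicates 1 and 2 at ranks 4265 and 2500 but not in replicate 3.

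The transcription factor gene dl (dorsal, FBgn0260632, chr2L:17436830-17450364, minus strand) had no optimal peak and no region within 500 bp of any of its 3 TSSs in any list. Its strongest pooled region, chr2L:17449294-17449717, was intronic, 858 bp downstream of a TSS, at rank 7299 (signal 69.5). This site was present in every replicate, at ranks 13899, 4944 and 7433. Another intronic region 880 bp upstream of an internal TSS had pooled rank 12170. With no region at the start in any list, dl stood with snk and spz. These were 3 of 9 members, against 32.7% of all coding genes with no TSS region in the pooled or any replicate list. The lists do not show whether weaker binding lay under the cutoffs of the lists.

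**Figure D2:**
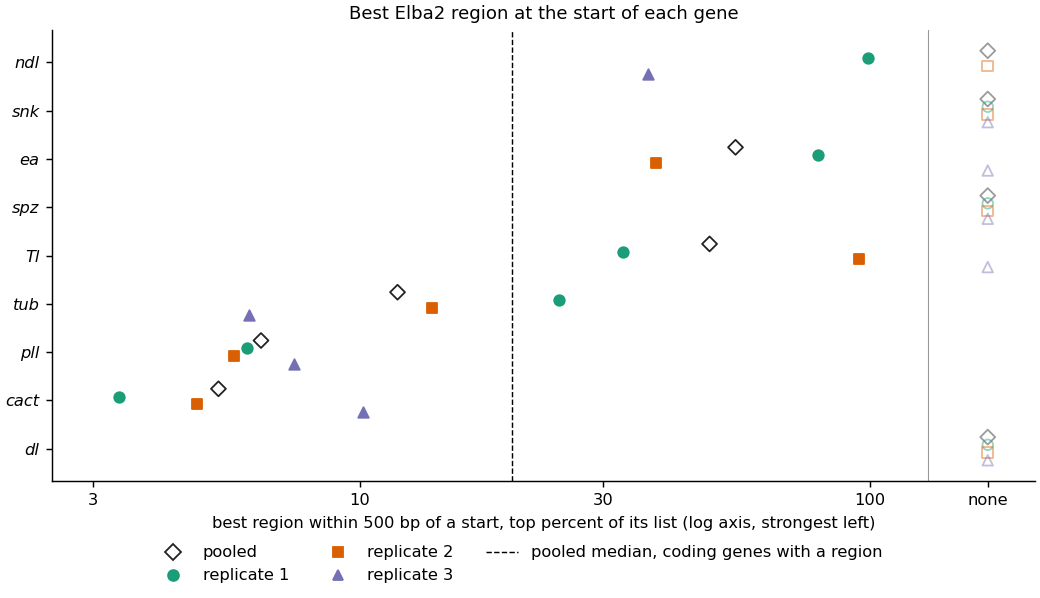
Best region within 500 bp of a TSS of each gene, as the top percent of its list on a log axis, for the pooled list and the 3 replicates; faint open symbols at the right mark no region in that list. The points of cact and pll lie in the top 10.2% of every list, tub varies between replicates, and dl, spz and snk have no region.

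In order of the pooled rank of the best region at the TSS, cact (1508) came before pll (1827), tub (3382), Tl (13816) and ea (15531). The replicate ranks of cact, pll and tub overlapped in this order, while every replicate with a Tl region ranked it below tub. The Tl and ea ranks overlapped. cact was stronger than pll in replicates 1 and 2 and weaker in replicate 3, where tub in turn was stronger than both. The top 3276 regions of a replicate reached the TSS of 2, 2 and 3 members in replicates 1, 2 and 3 (2.33 ± 0.577, SD, n = 3), against 18.7%, 17.4% and 16.0% of all coding genes. The genes were cact and pll in every replicate, with tub added in replicate 3. The median pooled rank of the 5 members with a TSS region was 3382, and that of the 7432 coding genes with one was 5680.

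Reproducibility at the pathway loci was set beside that of the lists. All 9 optimal peaks had a region within 200 bp in each replicate, as had 3181 of the 3276. In the top 3276 of every replicate were 4 of the 9 (the CG4278 and intron peaks of cact, the pll peak and the Cyfip peak by ea), against 56.3% of all optimal peaks. Of the 56 pooled regions in the 9 loci, 20 (35.7%) were found in every replicate, against 33.6% of all pooled regions. The optimal set was made from these same lists, so these shares are no independent check of it.

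**Figure D3:**
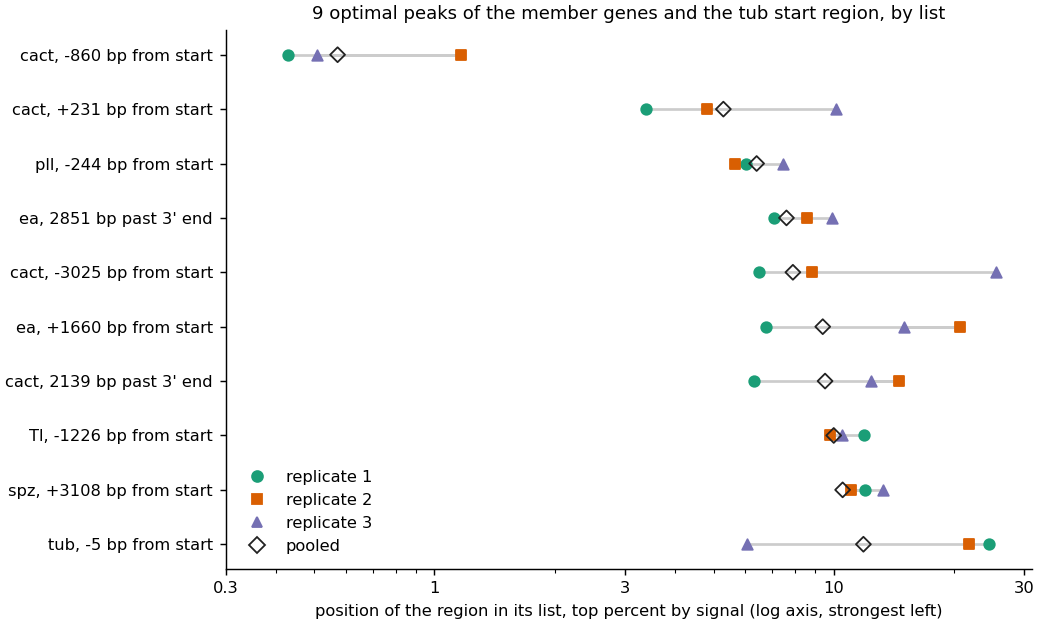
The 9 optimal peaks at the 9 genes and the region at the tub TSS, each as the top percent of the 3 replicate lists (filled symbols) and of the pooled list (open diamonds) on a log axis, in order of pooled rank. The peak 860 bp before cact stands apart at 0.700% ± 0.403, and the points of the other peaks overlap.

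Short words were then counted over the pathway peaks. Of the 9 optimal peaks, 2 (the spz intron and CG4278 peaks) had the ELBA site or the palindrome within 100 bp, against 15.4% of all optimal peaks. Without replicate 2 the count was 1 of 4 peaks, and without replicate 3 it was 1 of 5. The Tl peak had CCAATTGG 104 bp from its summit, just outside that window, which brings the count to 3 within 200 bp. GC content of the 201 bases ran from 28.9% at the fzy peak to 45.8% at the Cyfip peak, with a median of 42.8% against 39.8% over all optimal peaks.

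Other genes of the axis and related genes were then counted in 4 lists with 78 written symbols, which matched 77 genes. In all, 16 of the 77 (20.8%) had an optimal summit at a TSS, against 17.9% of all coding genes. Without replicate 1 the count was 9 of the 77, against 11.6% of all coding genes. A list of 17 genes was written as other dorsoventral Toll pathway genes, and whether each acts in the maternal axis was not examined. Of these 17, 6 (35.3%) had an optimal summit. The strongest was at the transcription factor gene Deaf1 (signal 397, replicate ranks 190, 199 and 165). Next were kra, a translation regulator (248), the TRAF adaptor gene Traf6 (196) and the G protein-coupled receptor kinase gene Gprk2 (165). The others were cactin, a Cactus-binding protein gene (132), and sll, a carrier gene for the sulphate donor used in ventral eggshell patterning (128). Genes with none included clos and fs(1)M3 of the egg covering and fs(1)N. The genes gd, pip, wbl and Myd88, named here after their values were seen, had none either. Like fs(1)M3, they had no region within 500 bp of a TSS in the pooled or any replicate list.

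Among 22 Toll and spz paralogs and immune partners, 2 (9.09%) had an optimal summit, which were Rel, the Relish factor of immunity (290, ranks 367, 681 and 309), and Toll-7, a Toll family receptor (249.9, ranks 541, 817 and 668). The paralog of dl beside it on 2L, Dif, had none, nor had 18w and GNBP1. A list of 31 genes was written as Dorsal targets, and whether Dorsal regulates each of them was not examined. Of these 31, 6 (19.4%) had an optimal summit, led by the FGF signalling gene stumps (188) and the heart and mesoderm gene tin (183). The BMP genes scw (153) and tsg (129) came next, with htl and ush the others. Ance, brk and Doc1 had none. The mesoderm genes twi and sna, named here after their values were seen, had none either, with sna at pooled rank 6537. Of 7 ovary genes that set up the axis, Egfr (214, ranks 813, 1025 and 756) and cni had one, cni through the peak it shares with fzy, and Cbl, fs(1)K10 and grk had none. Every list was small, its genes were chosen with earlier results known, and the differences between lists were not tested.

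**Figure D4:**
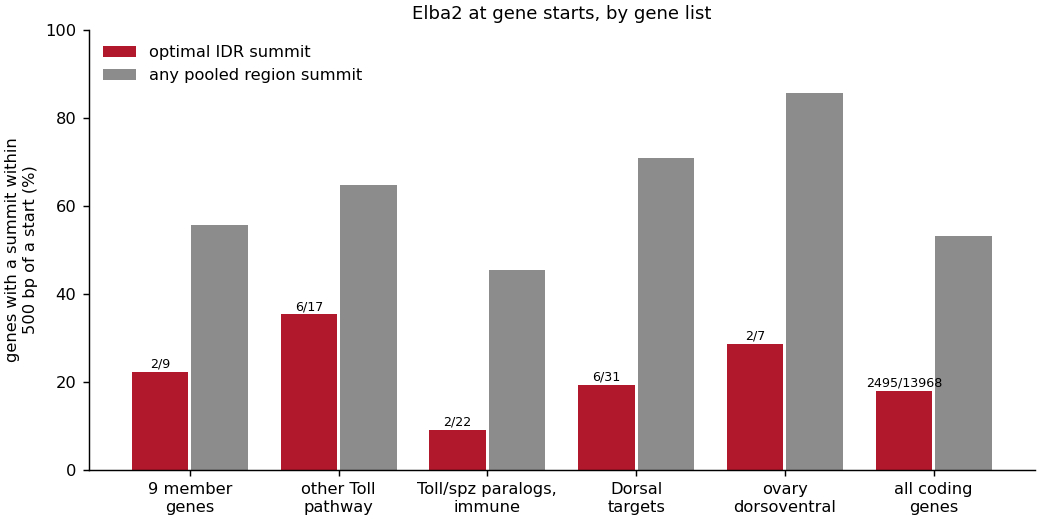
Percent of genes in each list with an optimal IDR summit (left bars, with the number of genes above) or any pooled region summit (right bars) within 500 bp of a TSS. The 9 member genes reach 22.2% and 55.6%, beside 17.9% and 53.2% of all coding genes.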

How the data were processed

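Chromatin immunoprecipitation and sequencing of tagged Elba2 gave the authors 5 peak lists on dm6 that were used here. Per the notes deposited with the samples, a list of peaks and background was made for each replicate and for the pooled replicates, and the optimal IDR set was derived from these. For the alignment, peak calling and IDR cutoff, the programs and settings were not given in the sources used here. The deposited signal value served only to rank regions within a list. The deposited −log10 q-value column was not used. The deposited summit offset gave the summit. The lists on dm3 and the control library were not used here.

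Sequence came from the Release 6 genome (NCBI RefSeq), the sequence that dm6 carries, and gene models from Ensembl release 115. Coordinates are 1-based. Summits were assigned to TSSs within 500 bp, to gene bodies and to flanks of 5 kb, with python 3.11.15, pandas 2.3.3 and numpy 2.4.6. The functions were tested on simulated summits and words. With 1 group, and with the control library left out, no test was run. Members are described by counts beside all coding genes, ± is the SD over replicates, and a count of a few genes carries wide error. The likeness of peaks was the Euclidean distance in log10 rank over the replicates. Members and lists were chosen with earlier results of these data known. All members were named, and in each other list up to 4 genes with the highest signal and up to 3 without a peak in alphabetical order. Bound list genes beyond these, and gd, pip, wbl, Myd88, twi and sna, were chosen once values had been seen. The alternatives concerned the window, the flank, the peak set, the replicates, the TSS set and the word window, and the nearest-TSS rule was added after seeing the data.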

Additional observations from a re-analysis of the deposited data

How the results depend on the processing

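No paired analysis was possible because the series has 1 group. The 2 members with an occupied TSS, cact and pll, were the ones called without each replicate in turn. This was 2 in each case, against 11.6% to 13.8% of all coding genes. The same 2 were called with windows of 250 bp (14.5% of all coding genes) and 1000 bp (21.0%). They were also called with whole regions in place of summits (19.4%), and with peaks found in the top of all replicates (10.7%). With the strongest 1638 peaks the count was 1 (cact; 10.02% of all genes, against 17.9% in the full set), and when only the nearest coding TSS counted it was also 1 (cact; 13.0% of all genes), the pll call going to TfIIA-L. The members with an optimal summit in the body or within 5 kb, 5 in the full set (43.8% of all genes), numbered 3 to 4 without 1 replicate (32.8% to 36.2%): spz was lost each time, and Tl without replicate 2 or replicate 3. They numbered 3 with peaks in the top of all replicates (30.05%), 1 with the strongest 1638 peaks (27.7%), and 6, with tub added, for 10 kb flanks (56.7%). In the gene body the count of 3 (11.3%) became 1 (cact) without any 1 replicate (1 to 1; 8.10% to 8.27%), with peaks in the top of all replicates (7.07%) and with the strongest 1638 peaks (6.22%). Peaks with the ELBA site or the palindrome, 2 of 9 in the full set, were 2 of 5 without replicate 1, 1 of 4 without replicate 2 and 1 of 5 without replicate 3, against 18.8%, 18.7% and 16.7% of all peaks in those sets. The genes of the 4 other lists with an occupied TSS were 16 of 77 in the full set, against 17.9% of all coding genes. They were 9 with the strongest 1638 peaks (against 10.02%) and 9 with peaks in all replicates (against 10.7%). They were 9 to 12 without 1 replicate (9 without replicate 1), against 11.6% to 13.8% of all coding genes. With windows of 250 bp and 1000 bp they were 12 and 19, against 14.5% and 21.0% of all coding genes. Whole regions in place of summits gave 18 (against 19.4%), and the nearest coding TSS alone gave 11 (against 13.0%). Without 1 replicate, the peaks were the 2114 to 2366 regions shared by the top 3276 of the other two, placed at the summit of a single replicate, so that in the set without replicate 1 the Tl palindrome came within 100 bp. These sets hold fewer peaks than the 3276 of the full set, and the cause of each lost call was not tested. Depth is unknown, so its effect on the weak spz and Tl peaks was not measured.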

Other observations

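Regions of the lists often came in pairs. The smallest distance between neighbouring summits was 199 bp in every list, and 9.56% of neighbouring summits in the pooled list were less than 250 bp apart. Such pairs lay at the TSSs of Tl, cact and pll and in the Tl intron at pooled ranks 8936 and 11199. The 17 pooled regions at cact are a count of listed regions, close pairs included. The genes Tl, spz and pll lie within 454 kb of each other on 3R, each with 1 optimal peak in its body or flanks, and 6 of the 9 members are on 3R, 2 on 2L and 1 on 3L.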
